A study of Mus musculus with 4 samples.

Results

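A set of 10 genes that mark successive stages of neutrophil maturation was followed in RNA-seq of mouse articular cartilage, to tell transcripts of marrow precursors from those of cells that had entered the tissue. They were picked by symbol from the 24532 genes of the expression table, in 3 stages. The 4 primary granule genes were Mpo, Elane, Prtn3 and Ctsg, the 4 genes of secondary and later granules were Ltf, Camp, Ngp and Mmp8, and the 2 genes of the mature cell were Retnlg and Padi4. All 10 were found and all were above 0 in every library.

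The study compared cartilage after sham surgery and after injury in wild type C57BL/6 mice of 2 ages, to ask how the response to a cartilage injury differs between young and adult animals. Young mice were 3 weeks old, whereas the age of the adults is 12 weeks in the sample titles, 14 weeks in the sample characteristics and 10 weeks in the methods. Injured cartilage was taken at day 3; the labels name DMM surgery (destabilization of the medial meniscus) and the methods a full-thickness cartilage injury, and the label of the adult sham sample runs from day 3 to day 14. Per the methods, cartilage of 10 injured or 5 uninjured mice was pooled, so each of the 4 groups (sham and injured cartilage at either age) was 1 library. No value below therefore has a replicate error, and no test between groups was possible.

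Neutrophils are made in the bone marrow from dividing precursors, and their granule proteins are made in a fixed order. Promyelocytes transcribe the primary (azurophil) granule proteins, myelocytes and metamyelocytes those of the secondary (specific) granules, and later cells those of the gelatinase granules. Transcripts of primary granule proteins are largely gone by the time a neutrophil leaves the marrow, while genes such as Retnlg and Padi4 are transcribed in the mature cell. Articular cartilage itself has no blood vessels and no marrow, but it lies on bone whose marrow makes neutrophils.

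The labels give chondrocytes as the cell type, and transcripts of cartilage matrix were abundant, with Col2a1 (type II collagen) at 9349 and 7903 FPKM in the sham and injured libraries of young mice and at 3173 and 3749.7 FPKM in those of adults. FPKM divide the fragments of a gene by the length of its transcript and by the size of the library, so they can be set against each other between genes. Matn1 and Matn3, cartilage matrilins, were at 1661 and 391.8 FPKM in young sham but at 2.65 and 2.30 FPKM in adult sham cartilage. The libraries summed to between 469939 and 533468 FPKM, and the steps of their lowest values correspond to 25500000 to 30900000 fragments if 1 step is 1 fragment. Only 23.6% to 29.6% of the low values lay near a step, so depth and any fragment number given here are rough. Across 10891 genes of at least 1 FPKM in every library, the ratio of injured to sham cartilage had a median log2 of -0.04 in the young and 0.23 in the adult, with -0.30 for adult against young sham and 0.07 for young against adult injured libraries, and median-of-ratios scaling brought these to between -0.02 and 0.02. Where 4 values are listed for a gene, they stand in the order young sham, then young injured, then adult sham, then adult injured. Bulk values are given, in which fewer cells of a type and less RNA per cell cannot be told apart.

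To show what lies upstream of genes of the first and the second stage, 4 promoters are printed, 150 bases each, ending at the base before the transcript start (RefSeq, GRCm38.p6, the assembly of mm10). Capitals mark GAGGAA, the core of sites for the factor PU.1, in the primary granule genes Elane and Prtn3, and TTGCNNAA, a core of C/EBP sites, on either strand in the secondary granule genes Ltf and Ngp.
Elane (chr10:79886162-79886311, + strand): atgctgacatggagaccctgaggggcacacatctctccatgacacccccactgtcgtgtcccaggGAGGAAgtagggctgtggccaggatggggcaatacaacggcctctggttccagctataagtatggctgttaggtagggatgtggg
Prtn3 (chr10:79879517-79879666, + strand): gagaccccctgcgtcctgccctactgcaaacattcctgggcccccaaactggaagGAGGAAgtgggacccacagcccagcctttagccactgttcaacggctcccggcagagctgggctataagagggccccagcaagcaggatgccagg
Ltf (chr9:111019142-111019291, + strand): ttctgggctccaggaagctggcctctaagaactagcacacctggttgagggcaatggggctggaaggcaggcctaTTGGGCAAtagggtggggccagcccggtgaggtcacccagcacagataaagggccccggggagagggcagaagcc
Ngp (chr9:110419658-110419807, + strand): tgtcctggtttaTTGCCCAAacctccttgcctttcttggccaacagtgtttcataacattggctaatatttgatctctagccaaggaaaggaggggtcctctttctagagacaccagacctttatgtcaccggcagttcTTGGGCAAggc

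In the 250 bases upstream of the start, searched on both strands, GAGGAA was present in 4 of 4 primary granule genes (Mpo, Elane, Prtn3 and Ctsg), in 2 of 4 secondary granule genes (Ltf and Mmp8) and in 0 of 2 mature cell genes, against 23.3% of 32851 mouse promoters. TTGCNNAA was present in 0 of 4 primary granule genes, in 3 of 4 secondary granule genes (Ltf, Ngp and Mmp8) and in 1 of 2 mature cell genes (Retnlg), against 9.56% of promoters. Ngp held it at 2 positions, 138 and 11 bases before the start. AAATCA, a core of Gfi1 sites, was present in Ltf and Mmp8 against 12.4% of promoters. TATAAA, the letters of the TATA box, was present in Padi4 on the strand of the gene, where it began 31 bases before the start. In Ctsg it was matched only on the opposite strand, 237 bases before the start. On either strand it was present in 12.4% of promoters. These are matches of letters in a window and not evidence of a bound factor.

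Mpo, Elane, Prtn3 and Ctsg encode the peroxidase and the serine proteases of the primary granule. Mpo (myeloperoxidase, Entrez Gene 17523, chr11:87793784-87804412) was at 16.0 FPKM (young sham) and 14.0 FPKM (young injured), and at 24.7 FPKM (adult sham) and 29.3 FPKM (adult injured). Both adult libraries were higher than both young libraries, as in 13.6% of the 18181 genes above 0 in at least 1 library. The antisense gene Gm11505 overlaps Mpo on the opposite strand, and its level was not analysed here. Elane (neutrophil elastase, 50701, chr10:79886312-79888216) was at 15.6 and 18.6 FPKM in sham and injured cartilage of the young and at 38.0 and 37.0 FPKM in that of the adult, again with both adult libraries above both young ones. Prtn3 (proteinase 3, 19152, chr10:79879667-79883174) lies 3137 bases upstream of Elane. It was at 10.9, 13.2, 22.8 and 23.9 FPKM in the 4 libraries, the same order of ages as its neighbour. Plppr3, on the opposite strand, overlaps Prtn3 and was at 0.458 to 1.77 FPKM; the kit keeps strand, but whether the values were counted by strand, which bears on Mpo and Prtn3, is not given in the sources used here. Ctsg (cathepsin G, 13035, chr14:56099885-56102574) was the lowest of the stage, at 3.09 and 3.84 FPKM in sham and injured cartilage of the young and at 3.17 and 6.29 FPKM in that of the adult. Its young injured value lay above its adult sham value, so its ages overlapped, while both injured libraries were above both sham libraries. Of the 10 genes, Mpo, Elane and Prtn3 had both adult libraries above both young ones.

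Ltf, Camp, Ngp and Mmp8 encode contents of the secondary and later granules, and Camp, Ngp and Ltf lie within 1195390 bases of chromosome 9. Ngp (neutrophilic granule protein, 18054, chr9:110419808-110423012), a member of the cathelicidin family of proteins, was at 125.8 FPKM (young sham), 228.8 FPKM (young injured), 94.8 FPKM (adult sham) and 177.7 FPKM (adult injured). It ranked 502, 310, 574 and 347 among all genes in these libraries and was the most abundant of the 10 genes in 3 of 4 libraries. Camp (cathelicidin, an antimicrobial peptide precursor, 12796, chr9:109847377-109849456) was at 79.0, 160.6, 106.0 and 135.5 FPKM, and was the most abundant of the 10 genes in adult sham cartilage. Ltf (lactoferrin, an iron-binding protein, 17002, chr9:111019292-111042766) was at 41.3, 71.5, 34.8 and 49.7 FPKM, again in that order. For Ngp, Camp and Ltf, both injured libraries were above both sham libraries, as in 21.8% of the 18181 genes, a share that makes this order common. Mmp8 (neutrophil collagenase, 17394, chr9:7558429-7568486) was at 6.45 and 10.4 FPKM in the young sham and injured libraries and at 2.81 and 4.87 FPKM in those of the adult. Here young sham was above adult injured cartilage, so sham and injured libraries overlapped.

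Retnlg (a resistin-like secreted protein of neutrophils, 245195, chr16:48872608-48874498) was at 39.5 FPKM (young sham), 78.9 FPKM (young injured), 33.3 FPKM (adult sham) and 45.3 FPKM (adult injured). Padi4 (peptidylarginine deiminase 4, which citrullinates histones when neutrophils release extracellular traps, 18602, chr4:140745508-140774239) was the lowest of the 10 genes in every library, at 1.09, 2.63, 0.678 and 2.76 FPKM. For both genes the injured libraries were above the sham libraries at either age. Padi4 values rest on about 66, 160, 48 and 163 fragments, if 1 step is 1 fragment, and those of Ctsg on about 81, 101, 98 and 161. Of the 31-base words of its transcript, Retnlg shared 5.51% with Retnla and Padi4 shared 0.481% with Padi1, Padi2 or Padi3, and the other 8 genes shared 0% with any other gene.

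**Figure D1:**
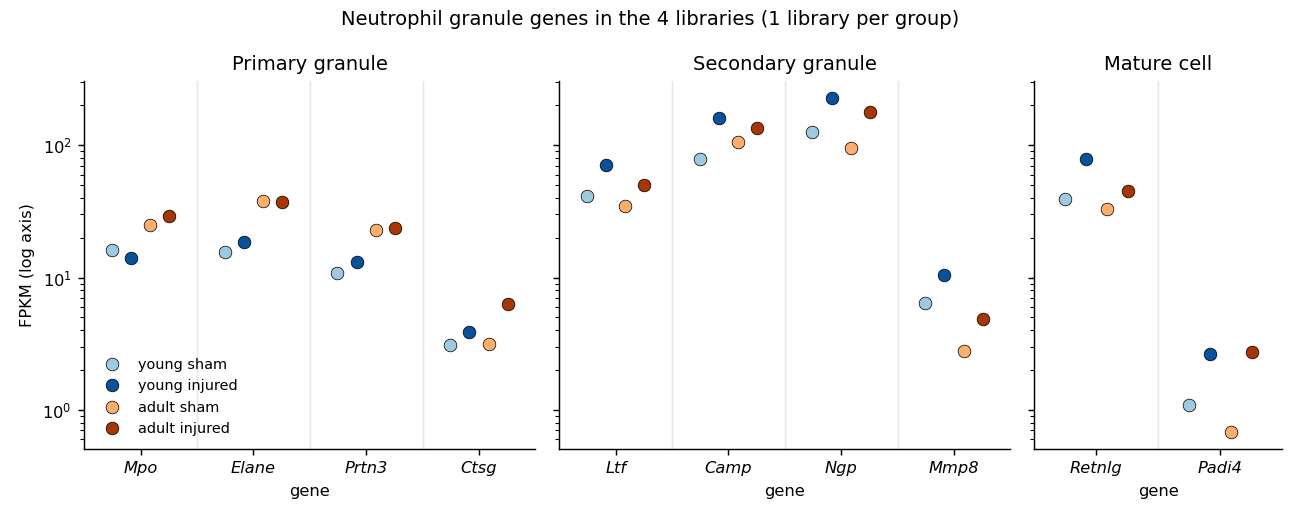
FPKM (log axis) of the 10 genes in the 4 libraries, 1 point per library, in panels for primary granule, secondary granule and mature cell genes. Both adult libraries lie above both young ones for Mpo, Elane and Prtn3 (13.6% of all genes tested), and both injured above both sham ones for Ctsg, Ltf, Camp, Ngp, Retnlg and Padi4 (21.8%).

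The first comparison asked what differed between injured and sham cartilage of young mice. Changes are given as log2 ratios of FPKM + 1, which understate the change of genes with low values, and a gene was said to rise or fall at 2-fold or more. Of the 10 genes, 1 (Camp) rose and 0 fell, beside 4.57% of the 18181 genes tested that rose and 1.27% that fell. A count of 1 in 10 is not a result about these genes beside such shares. Camp had a log2 ratio of 1.01, or 2.03-fold without the pseudocount. Retnlg was next at 0.98, then Ngp at 0.86, Padi4 at 0.80, Ltf at 0.77 and Mmp8 at 0.61. The 6 genes of the later stages thus had larger log2 ratios than any of the primary granule genes, of which Prtn3 was at 0.26, Elane and Ctsg at 0.24 each and Mpo at -0.18. By stage the median log2 ratio was 0.24 for primary granule, 0.82 for secondary granule and 0.89 for mature cell genes, beside 0 for all genes tested. The stage with primary granules summed to 45.6 FPKM in sham and 49.7 FPKM in injured cartilage, 1.09-fold, whereas the secondary granule genes summed to 252.6 and 471.3 FPKM, 1.87-fold, and the mature cell genes to 40.6 and 81.6 FPKM, 2.01-fold. The call of Camp was lost with a pseudocount of 5 FPKM, with TPM and with quantile normalization.

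The same question in adult mice gave 1 gene that rose, Padi4, and 0 that fell, beside 6.90% of all genes tested that rose and 1.46% that fell, so again the count is no result about these genes. Padi4 had a log2 ratio of 1.16, 4.06-fold without the pseudocount. Ngp followed at 0.90, Ctsg at 0.81, Mmp8 at 0.63, Ltf at 0.50, Retnlg at 0.43 and Camp at 0.35. Mpo was at 0.24 as deposited but at -0.03 after median-of-ratios scaling, and Prtn3 at 0.06 as deposited but at -0.20 and -0.14 after median-of-ratios scaling and quantile normalization. Elane was at -0.04 as deposited but at 0.06 as TPM. The direction of these 3 primary granule genes in adults therefore depended on the scaling, and Ctsg stood apart from them with 1.99-fold. The stage medians were 0.15, 0.56 and 0.80 for primary granule, secondary granule and mature cell genes, beside 0.14 for all genes tested, and that of the primary granule genes turned to -0.12 with median-of-ratios scaling and to -0.06 with quantile normalization. With the same settings the secondary granule median went to 0.33 and 0.29 and the mature cell median to 0.60 and 0.55, with Camp at 0.08 and 0.20, Retnlg at 0.17 and 0.24 and Ltf at 0.23 and 0.32. The summed FPKM rose nowhere by 2-fold, with 88.7 and 96.5 FPKM (1.09-fold) for primary granule, 238.4 and 367.7 FPKM (1.54-fold) for secondary granule and 33.9 and 48.1 FPKM (1.42-fold) for mature cell genes in sham and injured cartilage. The call of Padi4 was lost with a pseudocount of 5 FPKM and with quantile normalization.

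The difference between the ages in the injury log2 ratio, young minus adult, ranged from -0.56 for Ctsg to 0.66 for Camp and had a median of -0.11 for primary granule, 0.13 for secondary granule and 0.09 for mature cell genes. Each of these medians changed sign under at least 1 other scaling, so that no direction is given. Young mice had the larger ratio for 2 of 4 primary granule, 2 of 4 secondary granule and 1 of 2 mature cell genes.

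Between the sham libraries the question was how adult cartilage differs from young cartilage without injury. Elane, Prtn3, Mpo and Camp were higher in the adult as deposited and with TPM, median-of-ratios scaling and quantile normalization. The other settings, pseudocounts and the filter of 1 FPKM, cannot change a sign. Ctsg ranged from 0.0038 as TPM, no difference, through 0.03 as deposited to 0.42 with quantile normalization. Elane rose, with a log2 ratio of 1.23 and 2.44-fold without the pseudocount, and was the 1 gene of 10 past the threshold, beside 2.66% of all genes that were at least 2-fold higher in the adult. No member was at least 2-fold lower (0 of 10), beside 10.6% of all genes. Prtn3 had a log2 ratio of 1.00, just under the threshold, and 2.09-fold without the pseudocount, and Mpo 0.60. The 4 primary granule genes had a median of 0.80, beside -0.15 for all genes tested. Camp was higher in the adult by 0.42, while Ngp at -0.41, Mmp8 at -0.97 and Padi4 at -0.31 were lower. With median-of-ratios scaling and quantile normalization, Mmp8 stood at -0.66 and -0.57, but Ngp at -0.02 and -0.19 and Padi4 at -0.14 and -0.05. Ltf and Retnlg, at -0.24 each as deposited, turned to 0.13 each with median-of-ratios scaling and to 0.02 each with quantile normalization. The medians of the secondary granule and mature cell genes were -0.32 and -0.28, and they went to 0.06 and -0.0019 with median-of-ratios scaling and to -0.08 and -0.02 with quantile normalization. This comparison shares 1 sham library with each injury comparison, so their ratios are not independent.

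Between the injured libraries, the primary granule genes were lower in young than in adult cartilage. Mpo stood at 0.478-fold, a log2 ratio of -1.01, the 1 gene of 10 that was at least 2-fold lower, beside 1.80% of all genes tested, and its call was lost with a pseudocount of 5 FPKM (-0.85). None of the 10 was at least 2-fold higher (0 of 10), beside 3.09%. Elane had a log2 ratio of -0.95, Prtn3 -0.81 and Ctsg -0.59. The median of the primary granule genes was -0.88 beside 0.04 for all genes tested. All 4 were also below 0 with TPM, median-of-ratios scaling and quantile normalization, the only settings that could change a sign. The secondary granule genes were higher in young injured cartilage, with Mmp8 at 0.96, Ltf at 0.51, Ngp at 0.36 and Camp at 0.24. Their median was 0.44, and each stayed above 0 with the same scalings. Retnlg was at 0.79 and Padi4 at -0.05. On the scale without a pseudocount, Mmp8 was 2.13-fold and Retnlg 1.74-fold higher in young than in adult injured cartilage, while Elane was 1.99-fold and Prtn3 1.81-fold higher in the adult.

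**Figure D2:**
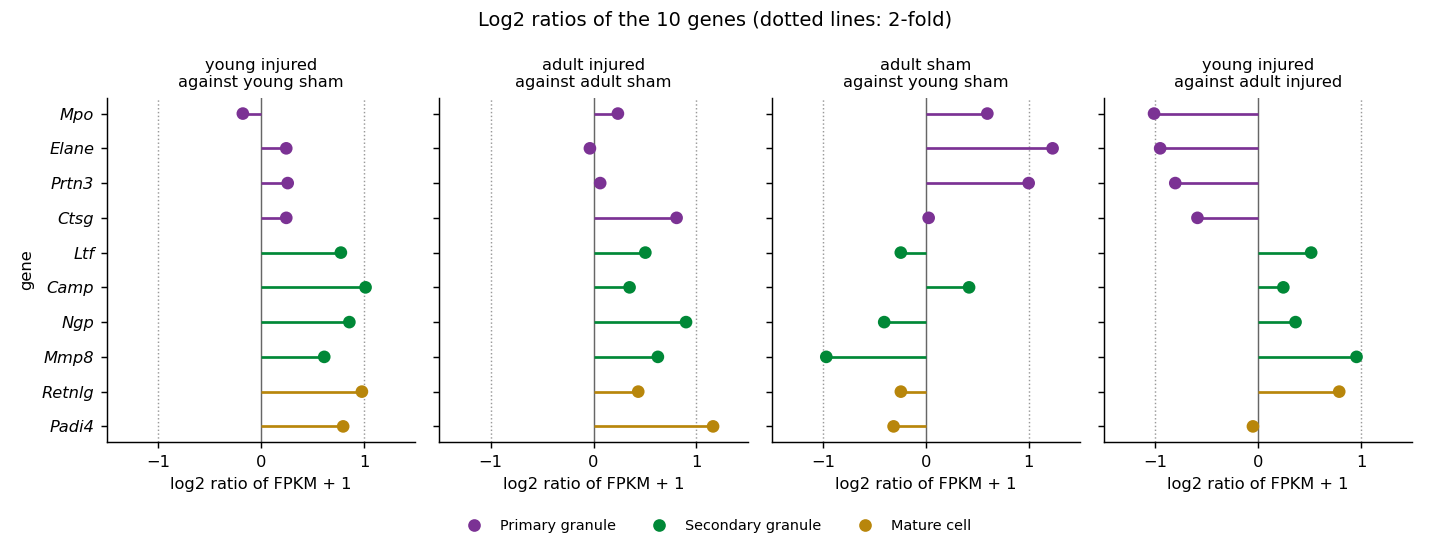
Log2 ratios of FPKM + 1 of the 10 genes in the 4 comparisons, 1 point per gene, coloured by stage, with dotted lines at 2-fold. After injury in young mice the 6 genes of later stages lie to the right of the 4 primary granule genes, and between the injured libraries the 4 primary granule genes lie between -1.01 and -0.59.

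The balance of the stages within a library is not moved by a factor that multiplies the whole library. Primary granule genes made up 13.5% of the summed FPKM of the 10 genes in the young sham and 8.25% in the young injured library, and 24.6% and 18.8% in those of the adult. Secondary granule genes made up 74.6%, 78.2%, 66.0% and 71.8%, and mature cell genes 12.0%, 13.5%, 9.40% and 9.38%. The primary granule share was thus lower in the injured than in the sham library at either age, and higher in either adult library than in both young libraries. The sum of the secondary granule genes was 5.54 times that of the primary granule genes in young sham and 9.48 times in young injured cartilage, and 2.69 and 3.81 times in the adult. Without the most abundant gene of each stage, and with means of log2(FPKM + 1) in place of sums, the 4 libraries kept this order. For 1 pair of genes, Ngp over Elane, the ratio was 8.07, 12.3, 2.50 and 4.80. Primary over mature cell genes gave 1.12, 0.610, 2.61 and 2.01, but the mature cell sum is nearly all Retnlg, and without it the ratio rests on Padi4 alone.

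**Figure D3:**
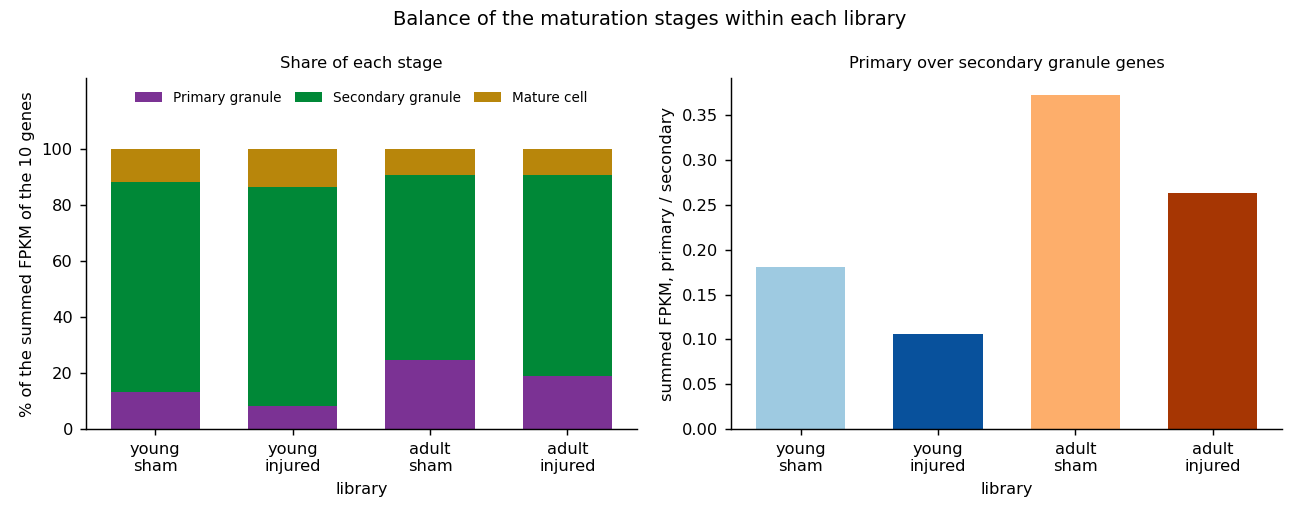
Left, the share of each stage in the summed FPKM of the 10 genes (%) per library, and right, the summed FPKM of primary over secondary granule genes per library, 1 bar per library. The ratio is 0.180 and 0.106 in young sham and young injured and 0.372 and 0.263 in adult sham and adult injured cartilage.

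Other genes linked to these stages were taken from lists that hold none of the 10 genes, apart from 1 list that holds Padi4. In these and the later lists, rises after injury stand beside 4.57% of all genes tested in young and 6.90% in adult mice. Falls stand beside 1.27% and 1.46%. After injury in young mice, 3 of 10 other promyelocyte genes rose and 0 fell, and in adults 4 of 10 rose and 0 fell, with medians of 0.51 and 0.80 beside 0 and 0.14 for all genes tested. Those that rose include Ctsc, whose product activates the granule proteases, with 1.44, 21.4, 1.31 and 15.7 FPKM, and Srgn, the granule proteoglycan serglycin, which rose in the young, with 15.5, 93.3, 61.5 and 114.3 FPKM. In the young the risers were Ctsc, Srgn and Igsf6, which macrophages also transcribe, and the part of macrophages was not tested. The list also holds Calr and Cd63, which most cells transcribe. Ms4a3, a gene of granulocyte and monocyte progenitors, did not pass 2-fold, at 1.28, 2.12, 1.91 and 3.38 FPKM. Gfi1, a repressor needed for neutrophil development, was at 0.436, 0.272, 0.795 and 0.907 FPKM, and Cebpe, the factor required for secondary granules, at 1.87, 3.54, 2.55 and 3.28 FPKM. Of 10 granulocyte transcription factors, 4 rose after injury in the young and 4 in the adult, and 0 fell, among them Spi1 (PU.1), which rose from 4.86 to 20.6 FPKM in the young and from 5.97 to 30.4 FPKM in the adult.

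Of 12 other secondary granule genes, 6 rose with injury in the young, 7 in the adult, and 0 fell, with medians of 1.15 and 1.05. In the young the risers were Lcn2, Lyz2, Hp, Cybb, Cyba and Anxa1, and which cells transcribed them was not tested. Lcn2 (lipocalin 2, which binds siderophores) rose from 64.6 to 639.2 FPKM in the young and from 82.7 to 2117 FPKM in the adult. Lyz2 (lysozyme, also a gene of macrophages) rose from 141.5 to 1271 and from 183.2 to 1089.95 FPKM. By contrast Cd177, a surface protein of neutrophils, was at 6.69, 11.3, 8.27 and 9.86 FPKM and Itgb2l at 2.67, 3.89, 2.16 and 2.36 FPKM, neither past 2-fold. Chil3 rose in the adult by 1.02 on the log2 scale, from 24.7 to 51.1 FPKM.

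Of 8 gelatinase granule genes, 7 rose in the young and 6 in the adult with 0 falling, and medians of 2.13 and 2.35. Mmp9 (gelatinase B, also made by osteoclasts) rose from 66.5 to 227.4 FPKM in the young and from 40.6 to 201.3 FPKM in the adult, and Itgam, the integrin chain CD11b shared with macrophages, from 3.82 to 31.3 and from 2.79 to 19.4 FPKM. Among 20 mature neutrophil genes, 15 rose in young and 16 in adult mice and 0 fell, with medians of 1.56 and 1.96, beside 4.57% and 6.90% of all genes tested that rose. Several of these, such as Clec4d, Alox5ap and Il1b with log2 ratios of 3.70, 3.15 and 2.73 in the young, are also genes of macrophages, whose part was not tested. Csf3r, the G-CSF receptor, rose from 2.05 to 9.37 FPKM in the young and from 1.96 to 10.9 FPKM in the adult. Cxcr2, the receptor that draws neutrophils out of the marrow and into tissue, was at 1.35 and 3.54 FPKM in young (log2 ratio 0.95) and rose from 0.673 to 3.69 FPKM in adult mice. S100a8 and S100a9, subunits of calprotectin, rose in young mice, from 405.9 to 845.2 and from 500.2 to 1074 FPKM, but in adults they were at 591.2 and 654.9 and at 695.8 and 820.7 FPKM, log2 ratios of 0.15 and 0.24.

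**Figure D4:**
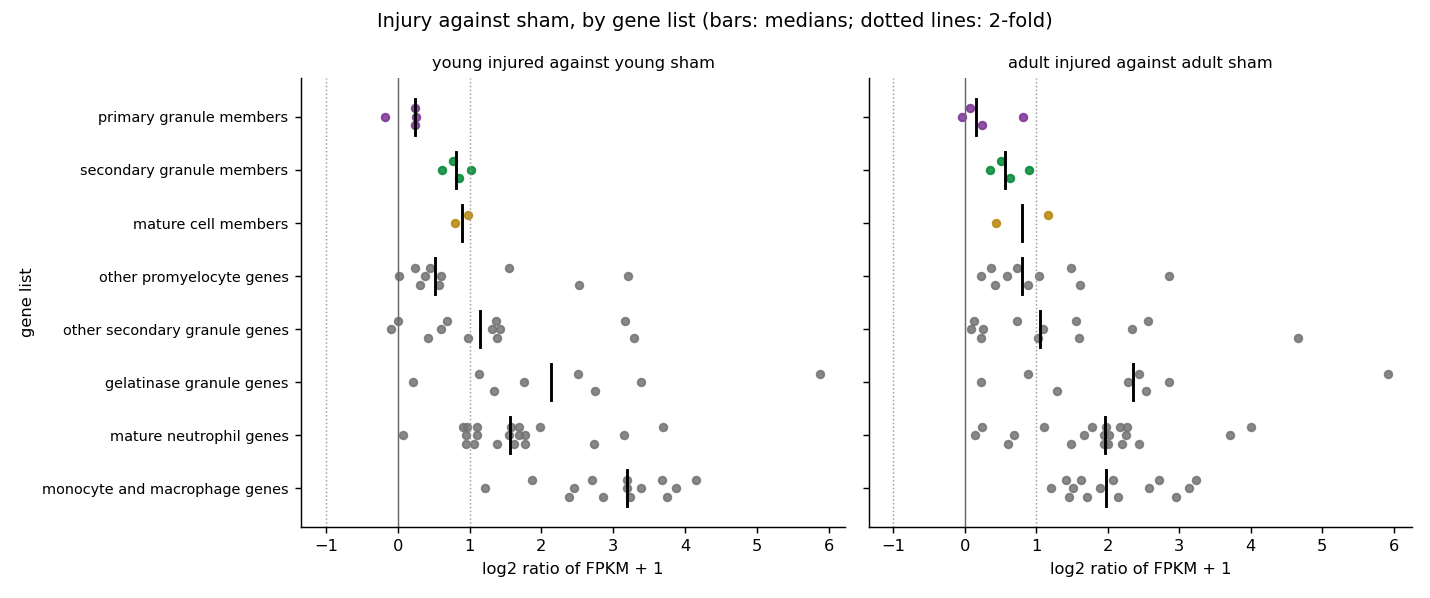
Log2 ratios of FPKM + 1 for injured against sham cartilage in young and adult mice, 1 point per gene, with a bar at the median of each list and dotted lines at 2-fold. The medians of the 3 member stages are 0.24, 0.82 and 0.89 in young and 0.15, 0.56 and 0.80 in adult mice, against 1.56 and 1.96 for other mature neutrophil genes and 3.19 and 1.98 for monocyte and macrophage genes.

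Genes of neutrophil recruitment and retention were counted beside them. Of 13 such genes, 12 of them above 0 in at least 1 library, 8 rose in young and 7 in adult mice and 0 fell, with medians of 1.16 and 1.27. The CXCR2 ligand Cxcl1 was at 0.121 FPKM in young sham and listed at 0 in adult sham, and was at 2.66 FPKM after injury in the young and at 6.42 FPKM in the adult. Cxcl2, Cxcl3 and Cxcl5 were listed at 0 in both sham libraries and were at 0.811, 1.46 and 2.08 FPKM in young and at 4.50, 3.93 and 2.87 FPKM in adult injured cartilage. Cxcl12, which holds neutrophils in the marrow through CXCR4, rose in young mice from 22.3 to 49.1 FPKM and was at 30.7 and 53.3 FPKM in adults. Il17a was listed at 0 in all 4 libraries. Of 11 genes of extracellular traps and partner enzymes, 10 of them above 0, 4 rose and 1 fell in young and 5 rose and 2 fell in adult mice. Those that rose include Padi4 itself in the adult and the oxidase subunits Ncf1 and Ncf4, of which Ncf1 rose from 6.82 to 31.8 FPKM in the young and from 6.53 to 25.0 FPKM in the adult. Padi2, a paralog of Padi4 with other sites of expression, fell from 5.71 to 1.92 FPKM in the young and from 23.5 to 2.66 FPKM in the adult, the opposite direction to Padi4 in the adult.

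Genes of other cells moved in the same comparisons, and their part in the values of the 10 genes was not tested. All 14 of 14 monocyte and macrophage genes rose after injury at either age, with medians of 3.19 and 1.98, and their sum went from 77.6 to 772.1 FPKM in the young and from 166.3 to 697.0 FPKM in the adult. None of these 14 was at 0 in any library, and C1qb and C1qc were at 9.57 and 10.01 FPKM in young sham and at 43.5 and 24.1 FPKM in adult sham cartilage. Of 15 proliferation genes, 5 rose in young and 9 in adult mice, and 0 fell. Of all genes tested, 4.57% rose and 1.27% fell in the young, and 6.90% rose and 1.46% fell in the adult.

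Genes of other lineages that mature in the marrow were counted as well. Erythroid precursor genes summed to 336.3 and 435.9 FPKM in the young sham and injured libraries and to 65.4 and 86.7 FPKM in the adult. Of 13 such genes, 12 were at least 2-fold lower in adult than in young sham cartilage and 11 were at least 2-fold higher in young than in adult injured cartilage, with medians of -1.89 and 2.12. The heme synthesis enzyme Alas2 was at 133.2, 222.0, 30.5 and 29.8 FPKM. B precursor genes summed to 60.9, 86.0, 15.4 and 21.8 FPKM, and 7 of 12 were at least 2-fold lower in adult than in young sham cartilage, Cd79b being at 19.1, 28.2, 5.59 and 7.73 FPKM. After injury, 0 of 12 B precursor genes rose or fell at either age, and of 13 erythroid precursor genes 0 rose in young mice and 1 (Tfrc) in adults. With 4.57% and 6.90% of all genes tested rising in the young and the adult, such counts are near the background. Eosinophil, basophil and mast cell genes summed to 57.8, 87.3, 27.3 and 25.5 FPKM, with 0 of 14 past 2-fold after injury at either age. The eosinophil granule gene Prg2 was at 36.3, 55.9, 16.4 and 13.1 FPKM.

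Between the ages, the medians of the primary granule genes and of these marrow lineages had opposite signs. The 4 primary granule genes had medians of 0.80 for adult against young sham and -0.88 for young against adult injured cartilage. The 10 other promyelocyte genes had medians of -0.09 and -0.08, and 4 of 10 had a log2 ratio above 0 for adult against young sham. This list also holds genes that macrophages or most cells transcribe, so its medians do not measure that stage alone. Erythroid precursor genes were at -1.89 and 2.12, B precursor genes at -1.13 and 1.07 and proliferation genes at -1.73 and 1.45, beside -0.15 and 0.04 for all genes tested, with 13 of 15 proliferation genes at least 2-fold lower in adult sham cartilage. Pcna, a clamp of DNA replication, was at 75.4, 102.5, 48.9 and 62.2 FPKM, and the dividing-cell gene Mki67 was at 13.3 and 19.7 FPKM in the young and at 1.38 and 4.97 FPKM in the adult, sham and injured. The 9 progenitor genes had medians of -0.04 and 0.08, but their most abundant members, Cd34 and Hoxa9, had log2 ratios of -0.997 and -1.52 for adult against young sham cartilage. Chondrocyte genes were also lower in the adult, 8 of 12 by at least 2-fold against 1 (Comp) that was higher, with a median of -1.67, and housekeeping genes had a median of -0.71 with 1 of 10 at least 2-fold lower. The 20 mature neutrophil genes lay between, with a median of -0.07 and 0 of 20 past 2-fold between the shams, where 2.66% of all genes tested were higher and 10.6% lower in the adult, so that this count and that of the housekeeping genes are near the background. The part of these other lists in the values of the 10 genes was not tested, and age cannot be told apart from what else differed between the pools.

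**Figure D5:**
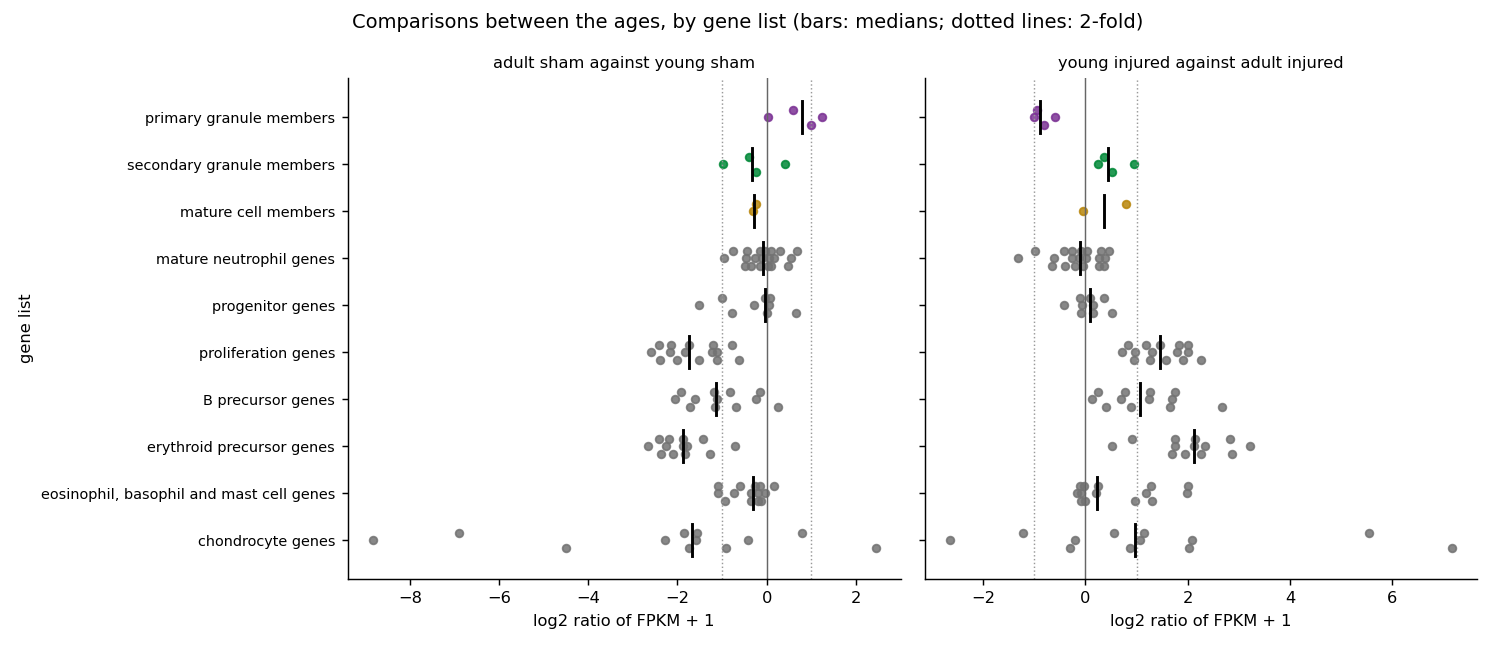
Log2 ratios of FPKM + 1 for adult against young sham and for young against adult injured cartilage, 1 point per gene, with a bar at the median of each list and dotted lines at 2-fold. The primary granule median is 0.80 on the left and -0.88 on the right, while that of the erythroid precursor genes is -1.89 and 2.12.

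The genes whose pattern over the 4 libraries was nearest to a stage were sought among the 8047 genes that averaged 5 FPKM or more, by the largest difference in log2(FPKM + 1) after each profile was centred on its own mean. Nearest to the primary granule genes were Tor4a, Rgcc, Bri3, Etv5 and Ppp2r5a, with largest differences of 0.05 to 0.09. Tor4a was at 8.80, 9.65, 15.4 and 17.5 FPKM in the order of libraries used above. Nearest to the secondary granule genes were Cdkn2d, Il18bp, Snx2, Pcolce and Dusp6, with 0.09 to 0.10, and Cdkn2d was at 13.6, 24.7, 10.1 and 17.3 FPKM. Nearest to the mature cell genes were Prcp, Ptgr1, Csrp2, Actr3 and Sipa1, with 0.03 to 0.09, and Prcp was at 9.12, 18.3, 7.28 and 13.6 FPKM. With 4 points a profile, a near match is a description, and none of these names was on the lists of neutrophil genes.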

How the data were processed

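The 4 libraries were made with a strand-specific kit from poly-A RNA, and the authors deposited FPKM per gene, on mm10. The submitters' processing notes name HISAT2 2.1.0, StringTie 1.3.4d, STAR and SAMtools without a role or order. FPKM already divide by transcript length and library size, so a library with a few very abundant genes lowers all others. Fragment counts were not used here, and the depth was read from steps of the lowest values of 17546 single-transcript genes, for counting error only.

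Each column was matched to its sample by name. Log2 ratios of FPKM + 1 were computed for 18181 genes above 0 in at least 1 library in 4 comparisons, called at 2-fold, with no test. Alternatives were pseudocounts of 0.1 and 5 FPKM, TPM, median-of-ratios scaling, quantile normalization, a filter of 1 FPKM, thresholds of 1.5-fold and 3-fold, means in place of medians, and other balance measures. The 10 genes and the 17 other lists (207 of 208 list genes were found, and the other was not analysed here) were chosen with earlier results of these data known. Named from lists were neutrophil genes at least 2-fold changed by injury or of at least 50 FPKM on average, not in strict order of level, and the 2 most abundant genes of other lists. Other names (Ms4a3, Gfi1, Cebpe, Cd177, Itgb2l, Il17a, Mki67, Matn1 and Matn3) were chosen after their values were seen. Promoters and coordinates came from RefSeq tables, where all 10 genes matched. A planned comparison of protein sequences was not run, and protein sequences were not used here. Scripts were tested on simulated data with 200 changed genes. Python 3.11.15, numpy 2.4.6, pandas 2.3.3 and matplotlib 3.10.9 were used.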

Additional observations from a re-analysis of the deposited data

Results flagged for a closer look

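Mpo and Elane had injury log2 ratios of opposite sign at the 2 ages. Mpo was at -0.18 in young and 0.24 in adult mice, a difference of -0.42 (young minus adult), and Elane at 0.24 and -0.04, a difference of 0.28. With 1 library per group these differences were not tested, and the adult values are those whose sign changed with the scaling.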

How the results depend on the processing

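No paired analysis was possible because each group was 1 library and the groups compared share fewer than 2 replicate numbers. Counts of the 10 genes past the threshold were small. Falls after injury numbered 0 at either age under every setting, and the other counts moved with some of them. For rises after injury in young mice (1 as reported) the count was 2 with a pseudocount of 0.1 FPKM and with median-of-ratios scaling, 0 with a pseudocount of 5 FPKM, TPM, quantile normalization and a 3-fold threshold, and 6 with a 1.5-fold threshold. In adult mice (1) it was 0 with a pseudocount of 5 FPKM, quantile normalization and a 3-fold threshold, 2 with TPM and 4 with a 1.5-fold threshold. For adult against young sham cartilage, higher genes (1) numbered 2 with a pseudocount of 0.1 FPKM, TPM, median-of-ratios scaling and quantile normalization, 3 at 1.5-fold and 0 at 3-fold, and lower genes (0) numbered 1 with a pseudocount of 0.1 FPKM, TPM and a 1.5-fold threshold, that gene being Mmp8 in each. For young against adult injured cartilage, higher genes (0) numbered 1 with a pseudocount of 0.1 FPKM and 2 at 1.5-fold, and lower genes (1) numbered 0 with a pseudocount of 5 FPKM and at 3-fold, 3 with TPM, 2 with median-of-ratios scaling and quantile normalization and 4 at 1.5-fold. Stage medians passed 2-fold for mature cell genes after injury with a pseudocount of 0.1 FPKM (1.10 in young, 1.16 in adult) and TPM (1.04 in adult), for primary granule genes between the shams with median-of-ratios scaling (1.17) and quantile normalization (1.05), and between the injured libraries with TPM (-1.08). The log2 balance of primary over secondary granule genes moved to -2.64 in young injured and -1.28 in adult injured cartilage with means of log2 values. Without Elane, Ngp and Retnlg, the log2 of primary over mature cell genes became 4.79, 6.22 and 4.43 in young sham, adult sham and adult injured cartilage and turned from -0.71 to 3.57 in young injured cartilage, since Padi4 alone was then the mature cell stage. At 1.5-fold, the shares of all genes tested were 9.50% higher in the young and 17.9% in the adult after injury, 6.54% higher and 25.1% lower in adult than in young sham, and 9.78% higher and 5.51% lower in the young than in the adult injured library. For single genes, 220 values kept their side of the threshold, 14 passed it and 6 were lost, and the cause was not tested. Of the 220, 40 came from the filter of 1 FPKM, which cannot alter the ratio of any of these genes. Depth limits Padi4 and Ctsg most, and no replicate error is known for any value.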

Other observations

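Of 8 megakaryocyte genes, 3 rose after injury in the young and 2 in the adult, and 0 fell, with medians of 0.78 and 0.29. Of all genes tested, 4.57% rose in the young and 6.90% in the adult. Pf4, a platelet chemokine that macrophages also transcribe, was at 6.37, 91.4, 6.92 and 58.8 FPKM in the library order of the report. Of 8 osteoclast genes, 4 rose in the young and 7 in the adult and 0 fell, with medians of 1.08 and 1.80. In the young injured library 4 of 8 were at least 2-fold lower than in the adult one, beside 1.80% of all genes tested. Acp5, the tartrate-resistant acid phosphatase of osteoclasts, was at 122.4, 305.6, 178.6 and 713.2 FPKM, and Mmp9, counted above with the gelatinase granule genes, is also on this list.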
